A study of Mus musculus with 14 samples.

Results

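The interferon response and Schlafen genes described here are Stat2, Irf1, Irf7, Ifit1, Ifit3, Isg15, Slfn1, Slfn2 and Slfn4. Their values were taken from every probe set annotated to one of these 9 genes and to no other gene. This gave 9 of the 22626 probe sets in the table, standing for 8 of its 12384 genes, with 2 probe sets for Stat2 and 1 for each of the other genes. All 9 were among the 13575 probe sets bright enough to be tested. Isg15 had no probe set of its own, since the probe set that carried its symbol was also annotated to Gm9706. The genes were chosen by their measured levels across all 7 groups, so their own values are given as a description and nothing is tested on them.

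Thymus RNA was hybridised to 14 Affymetrix arrays in 7 groups of 2. All mice were female C57BL/6, an inbred strain, had arrived at 21 days of age and were ovariectomised at 26 days, which removes the main source of estrogens. From 2 days after surgery they ate AIN-93G, a purified diet free of phytoestrogens. From 30 days of age, the estradiol groups were given 17β-estradiol, an ovarian estrogen, at 125 ng under the skin each day in 0.02 ml of corn oil, and were sampled on days 2, 3 and 6. The genistein groups ate food holding 1500 ppm of this soy isoflavone, a ligand of estrogen receptors, and were sampled on the same days. The control group was sampled untreated on day 0. Each array held RNA pooled from 3 mice, so that 6 mice stood behind each group, and the labels call the pools of a group independent biological replicates. Untreated arrays of days 2, 3 and 6 were not analysed here, so treatment and time since its start cannot be told apart in any comparison with control, and the labels list injections of oil for the estradiol groups only.

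Interferons are secreted signals of the antiviral response. Type I interferons act through the receptor chains Ifnar1 and Ifnar2, which activate a complex holding Stat2 and Irf9 that binds interferon-stimulated response elements and switches on genes such as the Ifit family, Isg15 and Irf7. Interferon gamma acts through Ifngr1 and Ifngr2 and leads to the binding of gamma-activated sites such as the one known in the promoter of Irf1. The Schlafen genes were first described as regulators of growth in developing mouse thymocytes, and several of them respond to interferon in mouse myeloid cells. The thymus is rich in cells that respond to interferon, including macrophages, dendritic cells and medullary epithelium.

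The deposited signals were intensities from the MAS5 algorithm. On 11 arrays the 2%-trimmed mean was 150.04, while estradiol day 2 replicate 2 stood at 1.49 times and estradiol day 3 replicates 1 and 2 at 2.0 and 2.23 times that value, and all arrays were multiplied to the common value. The mean correlation of an array with the others was between 0.942, for control replicate 2, and 0.969. Gapdh probe sets at the 3' and 5' ends of the transcript had a signal ratio, a measure of RNA integrity, that was 1.503 on genistein day 6 replicate 1, 1.266 on estradiol day 2 replicate 1 and between 0.867 and 1.105 on the other arrays. Log2 values below are log2(rescaled signal + 16), which understates changes of dim probe sets, and standard errors (SE) are those of limma. The defining markers of cortical thymocytes were above the filter in 9 of 9 measured genes, Rag1, Cd4 and Cd8a among them.

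To show which of these genes carry the binding motifs of the interferon pathway, the 250 bases before the annotated start are given from RefSeq on GRCm38.p6. Ifit1 and Stat2 stand for the type I response, Irf1 for interferon gamma, and Slfn2 is the gene with the largest differences below. Each was searched on both strands for the core of the interferon-stimulated response element, which is GAAA repeated after any 2 bases, and for the gamma-activated site, which is TTC and GAA around any 3 bases, and capitals mark the matches.
Ifit1 (chr19:34640639-34640888, plus strand): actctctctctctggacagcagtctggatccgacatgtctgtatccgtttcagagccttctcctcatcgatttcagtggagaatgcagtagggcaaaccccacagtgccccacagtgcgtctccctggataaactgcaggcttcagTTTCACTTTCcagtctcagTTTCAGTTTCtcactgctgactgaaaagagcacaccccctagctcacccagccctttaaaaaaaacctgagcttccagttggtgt
Stat2 (chr10:128270248-128270497, plus strand): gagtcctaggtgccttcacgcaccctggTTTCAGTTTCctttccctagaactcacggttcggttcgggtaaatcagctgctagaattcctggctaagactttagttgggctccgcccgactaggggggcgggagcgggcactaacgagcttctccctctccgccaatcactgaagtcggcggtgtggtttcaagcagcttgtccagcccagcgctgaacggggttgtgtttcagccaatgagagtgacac
Irf1 (chr11:53769764-53770013, plus strand): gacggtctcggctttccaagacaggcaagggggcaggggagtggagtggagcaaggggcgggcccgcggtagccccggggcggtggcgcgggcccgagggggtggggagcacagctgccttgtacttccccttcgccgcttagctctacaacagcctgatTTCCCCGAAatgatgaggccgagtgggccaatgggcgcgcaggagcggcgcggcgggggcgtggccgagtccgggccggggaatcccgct
Slfn2 (chr11:83064862-83065111, plus strand): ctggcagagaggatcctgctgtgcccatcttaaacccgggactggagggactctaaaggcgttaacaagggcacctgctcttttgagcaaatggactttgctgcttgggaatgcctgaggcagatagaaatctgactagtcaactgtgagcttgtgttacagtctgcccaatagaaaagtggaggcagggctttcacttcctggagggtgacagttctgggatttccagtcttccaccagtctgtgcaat
The Ifit1 window held 2 copies of the response element core, at bases -104 to -95 and -85 to -76 from the start, and the Stat2 window held 1 at -222 to -213. The Irf1 window held 1 gamma-activated site at -90 to -82, and none was found before a second annotated start of Irf1. The window of Ifit3 also held 2 copies of the core, at -156 to -147 and -122 to -113, and that of Isg15 held overlapping copies between -78 and -57. The Ifit3 window, chr19:34583279-34583528, lies inside the gene span given below, so its positions count from a start within that span. Neither motif was found in these windows of Slfn1, Slfn2, Slfn4 and Irf7. The windows of Slfn4 (chr11:83174936-83175185) and Irf7 (chr7:141266425-141266674) reach into the gene spans given below. They therefore cover less than 250 bases before those spans. Among 32851 mouse promoters of the same length, 2.98% held the core at least once, 0.18% held it 2 or more times, and 7.02% held the gamma-activated site. A match describes the letters of this window and is no measure of binding.

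The genes lie on several chromosomes, in GRCm38.p6 coordinates. Slfn1 (chr11:83116820-83122670), Slfn2 (chr11:83065112-83070678) and Slfn4 (chr11:83175172-83190216) are neighbours in the Schlafen cluster of chromosome 11, which also carries Irf1 (chr11:53770014-53778374). Ifit1 (chr19:34640889-34650009) and Ifit3 (chr19:34583119-34588982) lie near each other on chromosome 19. Stat2 lies at chr10:128270498-128292853, Irf7 at chr7:141263183-141266499 and Isg15 at chr4:156199424-156200818.

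Stat2, the signal transducer that works with Irf9 downstream of the type I receptor, had overlapping ranges of estradiol, genistein and control arrays over all days. Its brighter probe set, 1450403_at, had signals of 69.9 and 117.9 on estradiol day 2, 97.4 and 99.6 on day 3 and 106.2 and 91.8 on day 6. On genistein arrays it had 78.1 and 70.4 on day 2, 66.8 and 94.6 on day 3 and 65.6 and 93.2 on day 6, and on control arrays 99.0 and 72.2. The control values thus spanned most of the genistein range. The mean over days was 0.16 ± 0.194 (log2 difference, SE) for estradiol minus control, -0.11 ± 0.194 for genistein minus control and 0.26 ± 0.137 for estradiol minus genistein. With the deposited scale as a term in the fit the last was -0.06.

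The dimmer Stat2 probe set, 1421911_at, ranged over 52.7 to 94.2 on estradiol arrays, 39.5 to 66.5 on genistein arrays and 35.1 and 73.7 on control arrays. Its log2 difference of estradiol minus genistein was 0.75 ± 0.275 on day 3, where the estradiol arrays had 94.2 and 85.7 and the genistein arrays 55.6 and 39.5. On that day the brighter probe set differed by 0.26 ± 0.238. Both probe sets were therefore higher on estradiol day 3 than on genistein day 3, by different amounts. The dimmer one was also above both control arrays on estradiol day 3, and higher on estradiol day 6 than on genistein day 6. In these comparisons 40 and 26 of the 90 pathway probe sets described below were higher as well. The share of all probe sets is not given, so these counts are a description only.

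Irf1, a transcription factor that interferon gamma induces and that mouse CD8 T cells need for their development in the thymus, had overlapping ranges of estradiol, genistein and control arrays over all days. Its signal (1448436_a_at) ranged over 392.0 to 469.3 on estradiol arrays, with a median of 432.6. It ranged over 302.4 to 542.2 on genistein arrays, with a median of 437.4, and had 413.3 and 380.3 on control arrays. The genistein values held both extremes, 542.2 on day 2 replicate 1 and 302.4 on day 3 replicate 1. By day, the groups of estradiol days 3 and 6 and of genistein days 2 and 6 lay above both control arrays. In these comparisons 40, 34, 16 and 28 of the 90 pathway probe sets described below did as well. The share of all probe sets is not given by day, so this order and these counts are a description only. Over the mean of days, Irf1 differed by 0.11 ± 0.143 for estradiol minus control and by 0.01 ± 0.101 for estradiol minus genistein.

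Irf7, the transcription factor that amplifies production of type I interferon, was higher on all 6 estradiol arrays than on both control arrays. Its signal (1417244_a_at) was 231.1 and 214.4 on estradiol day 2, 293.8 and 255.7 on day 3 and 236.5 and 378.7 on day 6. Genistein arrays had 199.0 and 177.5 on day 2, 186.7 and 283.4 on day 3 and 213.0 and 360.9 on day 6, and on control arrays 165.2 and 193.8. Within each treatment, 1 of the day 6 arrays carried the highest value, and the other lay within the range of the earlier days. The log2 difference of estradiol minus control was 0.29 ± 0.256 on day 2, 0.57 ± 0.256 on day 3 and 0.70 ± 0.256 on day 6. That of genistein minus control was 0.07 ± 0.256, 0.34 ± 0.256 and 0.59 ± 0.256 on the same days. The day 6 differences from control were 0.37 without estradiol day 6 replicate 2 and 0.23 without genistein day 6 replicate 2. The neighbouring group means of Irf7, ordered from highest to lowest, never differed by more than the spread of 0.31 (log2 SD) between arrays of a group.

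**Figure D1:**
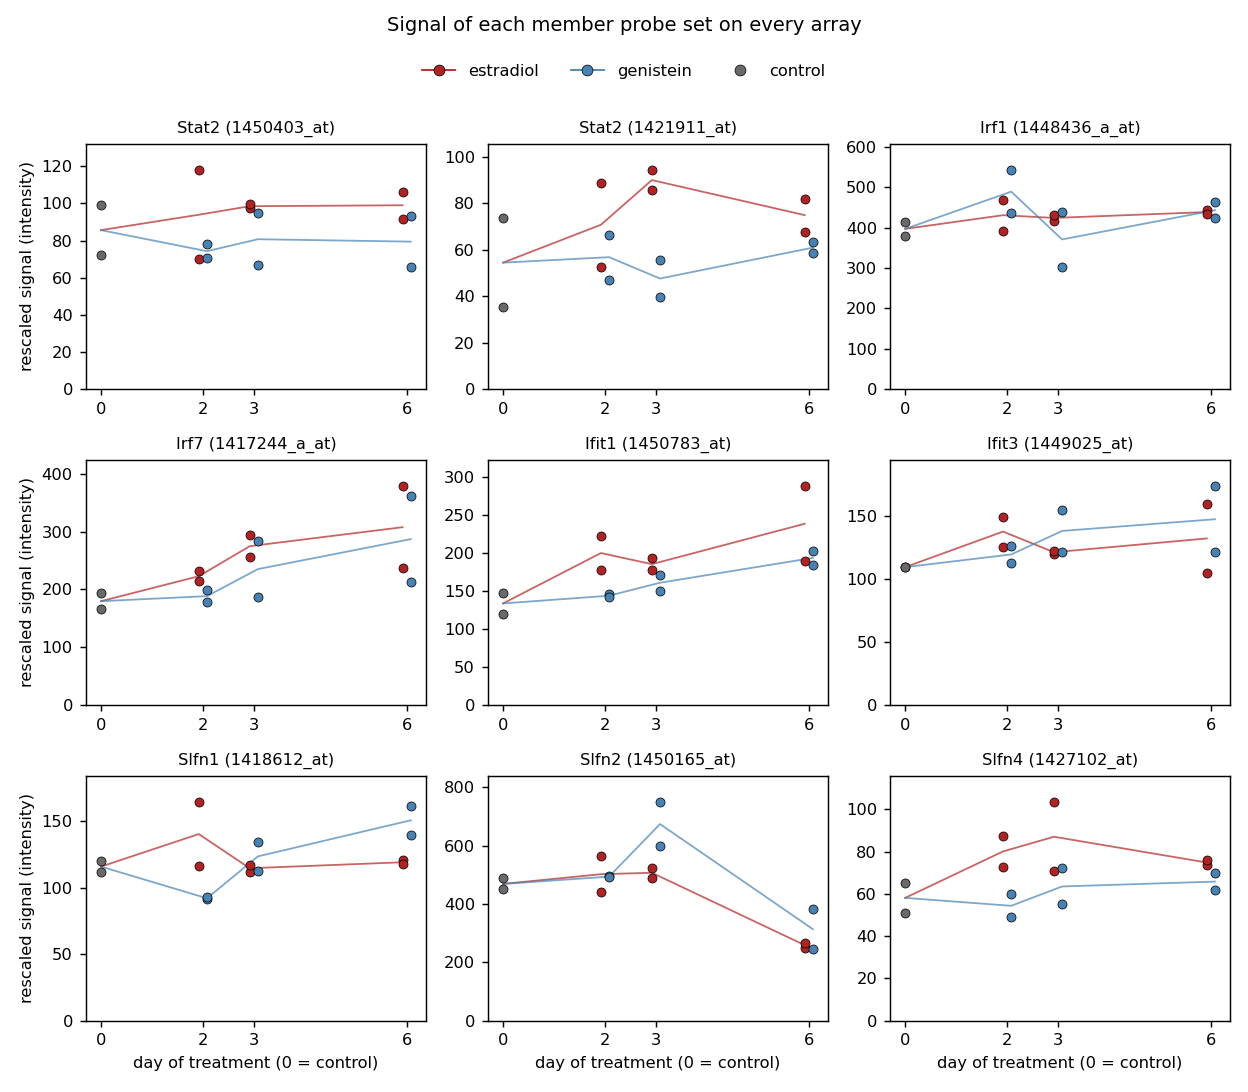
Rescaled signal (intensity, linear axis from 0) of the 9 probe sets on every array against the day of treatment, with estradiol in red, genistein in blue and the untreated control in grey at day 0. Points are arrays (pools of 3 mice) and lines join group means. Slfn2 stands between 245.7 and 382.5 on the 4 day 6 arrays of both treatments, and Ifit1 and Irf7 have their highest values, 288.3 and 378.7, on the same estradiol day 6 array.

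Ifit1, a protein that binds viral RNA with an unmethylated cap, was likewise higher on all 6 estradiol arrays than on both control arrays. Its signal (1450783_at) was 223.0 and 177.2 on estradiol day 2, 193.5 and 177.4 on day 3 and 189.1 and 288.3 on day 6. Its genistein values were 145.6 and 142.1 on day 2, 150.2 and 171.7 on day 3 and 184.5 and 202.9 on day 6, and on control arrays 120.2 and 147.2. The genistein day 2 arrays lay within the control range, the day 3 arrays just above it and the day 6 arrays clearly above it. The log2 difference of estradiol minus control was 0.53 ± 0.193 on day 2, 0.43 ± 0.193 on day 3 and 0.75 ± 0.193 on day 6. The log2 difference of genistein minus control was 0.10 ± 0.193, 0.24 ± 0.193 and 0.49 ± 0.193 on the same days. Without estradiol day 6 replicate 2, the estradiol day 6 difference from control was 0.46, and that of estradiol minus genistein on day 6 was -0.03, against 0.25 with it. Over the mean of days, Ifit1 was 1.48-fold of control under estradiol and 1.21-fold under genistein, and 1.22-fold for estradiol over genistein, on the scale of log2(signal + 16).

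Ifit3, which forms complexes with Ifit1 in human cells, followed another order of groups. Its signal (1449025_at) was 149.4 and 125.5 on estradiol day 2, 119.8 and 122.3 on day 3 and 104.8 and 159.2 on day 6. The genistein arrays had 112.2 and 126.4 on day 2, 121.3 and 154.6 on day 3 and 173.5 and 121.0 on day 6, and on control arrays 109.3 and 109.2. All 6 genistein arrays lay above both control arrays, while 1 estradiol array lay below them. The mean over days differed by 0.21 ± 0.17 for estradiol minus control, 0.25 ± 0.17 for genistein minus control and -0.04 ± 0.12 for estradiol minus genistein.

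Isg15, the ubiquitin-like modifier of the interferon response, could be followed only through the probe set 1431591_s_at that it shares with Gm9706. Its signal lay between 87.0 and 145.4 on estradiol arrays and between 93.9 and 147.9 on genistein arrays, with 119.0 and 113.7 on control arrays. Both treatments therefore spanned the control values. This probe set entered none of the counts below.

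Slfn1, whose expression in transgenic mouse thymocytes slows their growth, had differences between the treatments of opposite sign on days 2 and 6. Its signal (1418612_at) was 164.2 and 116.1 on estradiol day 2, 111.8 and 117.2 on day 3 and 120.5 and 117.5 on day 6. Under genistein the signal was 91.1 and 92.8 on day 2, 112.4 and 134.4 on day 3 and 161.2 and 139.8 on day 6, and on control arrays 120.0 and 111.5. The genistein day 2 arrays were the lowest of all 14 arrays. The log2 difference of estradiol minus genistein was 0.52 ± 0.173 on day 2, -0.09 ± 0.173 on day 3 and -0.30 ± 0.173 on day 6. The day 2 value was 0.29 without estradiol day 2 replicate 1, the array with 164.2. That of genistein day 6 minus genistein day 2 was 0.62 ± 0.173. The highest estradiol value was on the day 2 array whose Gapdh ratio was 1.266, and the highest genistein value on the day 6 array whose ratio was 1.503. The part of RNA integrity in these values was not tested.

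Slfn2, which keeps mouse T cells and monocytes in quiescence, had the largest differences among these genes, and they were on day 6 under both treatments. Its signal (1450165_at) was 564.9 and 439.8 on estradiol day 2, 490.6 and 524.1 on day 3 and 250.5 and 268.1 on day 6. On genistein arrays it was 494.6 and 493.5 on day 2, 598.7 and 749.7 on day 3 and 245.7 and 382.5 on day 6, and on control arrays 450.4 and 487.8. All 4 day 6 arrays were below the other 10 arrays, a pattern that 11 of 13575 probe sets showed (0.081%). The signal on day 6 averaged 259.3 ± 12.4 (SD, n = 2) under estradiol and 314.1 ± 96.7 under genistein, against 469.1 ± 26.4 in control.

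On the log2 scale, Slfn2 on day 6 differed from control by -0.82 ± 0.192 under estradiol and by -0.59 ± 0.192 under genistein. These are 0.568-fold and 0.666-fold of control. Against day 3 of the same treatment, day 6 differed by -0.93 ± 0.192 under estradiol and by -1.09 ± 0.192 under genistein. On day 3 the genistein arrays stood 0.50 ± 0.192 above control and were the highest group. The estradiol and genistein groups of day 6 differed by -0.23 ± 0.192 (estradiol minus genistein), about the within-group spread of 0.21, and by 0.07 without genistein day 6 replicate 2. Both comparisons with control use the same control arrays. Both estradiol day 3 arrays were deposited at another scale, while no day 6 or control array was. The part of this scale and of RNA integrity in the Slfn2 values was not tested. The genistein day 6 array with a Gapdh ratio of 1.503 was the lower of its pair, at 245.7. Without that array the genistein difference from control was -0.28, and without the other genistein day 6 array it was -0.89.

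Slfn4, a Schlafen gene of mouse myeloid cells, was higher on all 6 estradiol arrays than on both control arrays. Its signal (1427102_at) was 87.2 and 72.9 on estradiol day 2, 70.6 and 103.4 on day 3 and 73.5 and 76.1 on day 6. On genistein arrays it was 49.0 and 59.7 on day 2, 72.0 and 55.0 on day 3 and 69.8 and 61.8 on day 6, and on control arrays 65.1 and 51.1. Genistein arrays overlapped both other groups. The mean over days differed by 0.38 ± 0.168 for estradiol minus control, 0.06 ± 0.168 for genistein minus control and 0.32 ± 0.119 for estradiol minus genistein. This probe set was among the dimmer ones tested. Its group means were 6.13 to 6.67 (log2), where the lowest mean of a tested probe set was 5.92. A further probe set, shared with Slfn3, was dimmer still, at 0.6 to 28.5 over all arrays.

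**Figure D2:**
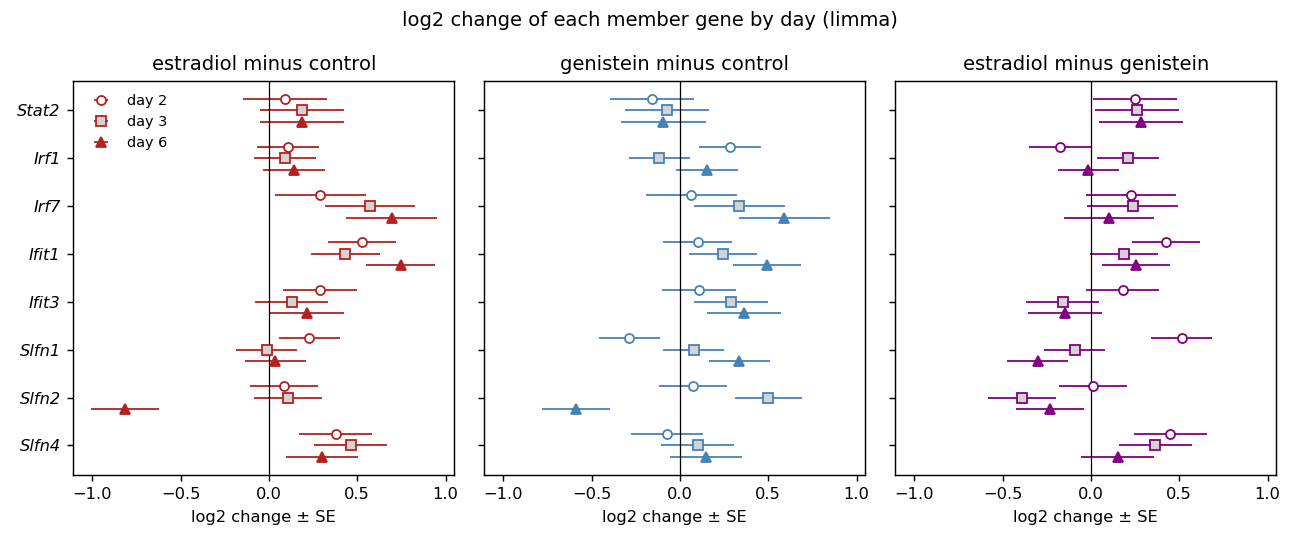
Log2 difference (x axis) of the 8 genes, 1 probe set each, on days 2, 3 and 6 for estradiol minus control, genistein minus control and estradiol minus genistein. Symbols are limma estimates from 2 arrays a group and bars are SE. The day 6 values of Slfn2, -0.82 and -0.59 against control, lie farthest below 0, and those of Ifit1 and Irf7 under estradiol, 0.75 and 0.70, farthest above it.

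The gene whose profile over the 14 arrays was most like that of each member is given as a description, since arrays of a group share their treatment. For Slfn4 it was S100a9, a granule protein of neutrophils and monocytes (Pearson r = 0.883), followed by H2-K1, a class I antigen-presenting molecule (0.858). For Irf7 it was Krt5, a keratin of medullary epithelium (0.90), followed by C1qc, a complement subunit made by macrophages (0.866). Ifit1 was most like Limch1 (0.922) and Parm1 (0.91). Slfn2 was most like Ldah, a lipid droplet hydrolase (0.853), and Plekhf1 (0.795). The closest genes were Man2c1 and Ctsw for Slfn1 (0.805 and 0.803), Rps15 and Elovl1 for Ifit3 (0.819 and 0.817), Usb1 and Efs for Irf1 (0.901 and 0.833) and Actn1 and Kdm5c for Stat2 (0.911 and 0.877). Of these 16 genes, 0 belong to the interferon pathway list described below. That list holds 90 of the 13575 probe sets tested, so this count says little about the pathway.

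Summed markers of macrophages, of monocytes and neutrophils and of thymic epithelium were higher on all estradiol arrays than on control arrays. So were those of B cells and mature T cells, given below, while those of plasmacytoid dendritic cells and cortical thymocytes overlapped. The summed signal of 14 macrophage markers was 4525 to 4996 on estradiol arrays, 3406 to 4429 on genistein arrays and 3363 to 3598 on control arrays, and Marco was below the filter. For monocytes and neutrophils the sum of 6 tested markers was 1318 to 1915 on estradiol arrays, 616 to 1220 on genistein arrays and 852 to 885 on control arrays, with Ccr2, Elane, Camp, Cxcr2, Csf3r and Itgam below the filter. Irf7, Ifit1 and Slfn4 had the same order of estradiol and control arrays, an order that was not particular to myeloid or epithelial markers. The sum of 9 thymic epithelial markers was 6464 to 7542 on estradiol arrays, 5745 to 6503 on genistein arrays and 4881 to 5201 on control arrays. The sum of 7 plasmacytoid dendritic cell markers was 3047 to 3354, 2927 to 3612 and 2942 to 3075 in the same groups, with Klk1, Tlr7 and Tlr9 below the filter. Bst2 and Irf8 of this list are also among the pathway genes described below, so its sum is not separate from them. In pooled tissue RNA, fewer cells of a type and less RNA per cell cannot be told apart, and the part of cell numbers in the values above was not tested.

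Slfn2 is expressed in mouse T cells, so the sums of lymphoid markers are given beside it. The 9 markers of cortical, double-positive thymocytes summed to 11580 and 10645 on estradiol day 6 and to 11905 and 12554 on genistein day 6, against 12204 and 11873 in control. The 7 markers of mature T cells summed to 1630 and 1775 on estradiol day 6 and to 1917 and 1825 on genistein day 6, against 1599 and 1408 in control. The sums of B cell markers were 2567 to 3154 on estradiol arrays, 2297 to 3237 on genistein arrays and 2318 to 2401 on control arrays, with Pax5 below the filter. The mature T cell sum was above both control arrays on every treated array except genistein day 2 replicate 2. On estradiol day 6 it was below the 1789 to 1950 of estradiol days 2 and 3. On genistein day 6 it was within or above the 1341 to 1835 of genistein days 2 and 3. The cortical sum of day 6 was below both control arrays under estradiol and above the lower of them under genistein. It was below days 2 and 3 of the same treatment, at 11781 to 12897 under estradiol and 12730 to 13505 under genistein. The part of lymphoid cell numbers in Slfn2 was not tested.

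Whether interferon signalling as a whole differed was examined over 104 other genes of the pathway, of which 82 had a probe set of their own and 63, with 90 probe sets, were bright enough to be tested. No member is among them. The list was chosen with earlier results of these data known, so its counts are no independent test. Under estradiol on day 6, 2 of the 90 probe sets rose against control and none fell (limma, Benjamini-Hochberg adjusted p under 0.05), where 0.656% of all probe sets passed in either direction. They belonged to Uba7 and Gbp2. For the day 2, day 3 and averaged comparisons none passed (limma), where 0.0884%, 0.0663% and 0.604% of all probe sets did. At an unadjusted p under 0.05 there were 18, 12, 25 and 22 of the 90 for days 2, 3, 6 and their mean, against 12.3%, 10.2%, 14.0% and 14.8% of all probe sets.

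Uba7, the activating enzyme for Isg15, had signals of 326.2 and 324.1 on estradiol day 6 (1426970_a_at), against 164.4 and 181.6 in control. The log2 difference was 0.85 ± 0.166 (limma adjusted p = 0.0347). On genistein day 6 the same probe set had 266.0 and 261.5, a log2 difference of 0.57 ± 0.166 that did not pass (limma adjusted p = 0.362). Its other probe sets differed by 0.23 ± 0.229 and 0.86 ± 0.421 for estradiol minus control on day 6 and did not pass either. The call of the first was lost when 1 array of control, of estradiol day 6 or of genistein day 3 was left out, whichever of the pair it was, at 0.79 to 0.92 (limma adjusted p = 0.0531 to 0.316).

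Gbp2, an interferon-induced GTPase, had signals of 189.9 and 158.0 on estradiol day 6 (1435906_x_at), against 95.6 and 97.4 in control. The log2 difference was 0.75 ± 0.154 (limma adjusted p = 0.044). Its brighter probe set, 1418240_at, had 213.6 and 234.4 on estradiol day 6 and 189.8 and 167.9 in control, a difference of 0.30 ± 0.143 that did not pass (limma adjusted p = 0.371). The probe sets of Gbp2 therefore disagreed in size, and the ending of the first marks probes that can bind related transcripts. Its call was lost when either array of control, estradiol day 3, estradiol day 6, genistein day 2 or genistein day 3 was left out, at 0.63 to 0.87 (limma adjusted p = 0.0532 to 0.352).

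Under genistein none of the 90 probe sets passed against control on any day or over their mean (limma). For days 2, 3, 6 and their mean there were 9, 5, 10 and 9 probe sets at an unadjusted p under 0.05, against 11.8%, 5.73%, 10.4% and 11.1% of all probe sets. After adjustment 0.0147%, 0.00737%, 0.00737% and 0.0368% of all probe sets passed.

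The 63 pathway genes mostly had small positive differences under estradiol. Their median log2 difference from control was 0.17 on day 2, 0.20 on day 3 and 0.26 on day 6, and 55 of 63 had a value above 0 on day 6, where 50.4% of all probe sets did. Under genistein the medians were 0.00, 0.06 and 0.18, and 51 of 63 were above 0 on day 6, where 52.8% of all probe sets were. The median of all probe sets was 0.00 to 0.02 in these 2 day 6 comparisons. These shares and medians cover every tested probe set, while each pathway gene counts once, through its brightest. The medians over the 8 members were 0.26, 0.16 and 0.20 under estradiol and 0.07, 0.17 and 0.24 under genistein on days 2, 3 and 6. Both treatments were set against the same control arrays. By role, the medians on estradiol day 6 were 0.11 for 7 receptors and kinases, 0.18 for 6 sensors and adaptors and 0.34 for 5 transcription factors. They were 0.31 for 30 antiviral effectors, 0.21 for 8 guanylate-binding and immunity-related GTPases and 0.31 for 6 genes of the Isg15 pathway and its feedback. No ligand was bright enough to be tested.

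**Figure D3:**
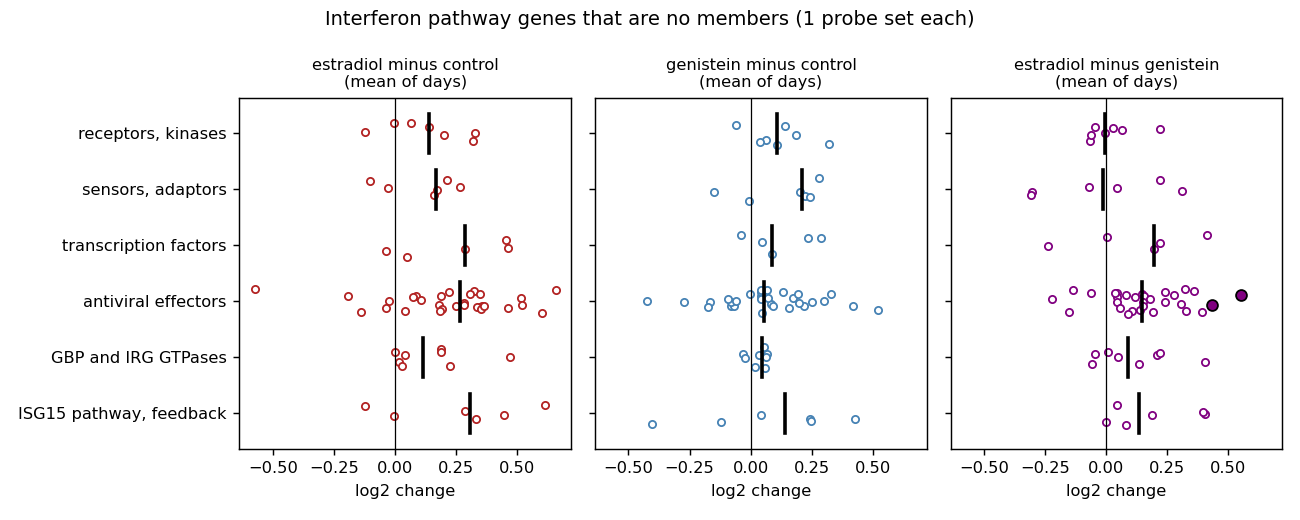
Log2 difference over the mean of days (x axis) of the pathway genes other than members, 1 probe set each, by role, for estradiol minus control, genistein minus control and estradiol minus genistein. Circles are genes, filled where they passed in limma (adjusted p under 0.05), and vertical bars are medians. The filled circles, Ifi35 at 0.55 and Isg20 at 0.43, are both antiviral effectors in the comparison of estradiol with genistein.

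Seen by array, these differences were uneven. The median log2 difference of the 63 pathway genes from their control mean was 0.07 and 0.31 on estradiol day 2, 0.22 and 0.21 on day 3 and 0.09 and 0.39 on day 6. On genistein arrays it was -0.039 and -0.004 on day 2, 0.06 and 0.14 on day 3 and 0.10 and 0.24 on day 6, and on control arrays -0.03 and 0.03. Estradiol day 6 replicate 2 stood out, a feature chosen after the values were seen. On this array 75 of 90 pathway probe sets were above replicate 1 of the group, where 51.4% of all probe sets were, and 28 of 90 were the highest of all 14 arrays, where 6.81% of all were. Ifit1 and Irf7 had their highest values there as well. Without this array the median over pathway genes on estradiol day 6 was 0.09, with 41 of 63 genes above 0, and without replicate 1 it was 0.39, with 55 above 0. Its Gapdh ratio was 0.945, and its macrophage marker sum of 4996 was the highest of all arrays. The next sums were 4879 on estradiol day 2 replicate 1 and 4878 on estradiol day 3 replicate 2, where the pathway medians were 0.07 and 0.21. The part of RNA integrity or of macrophage numbers in these values was not tested.

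**Figure D4:**
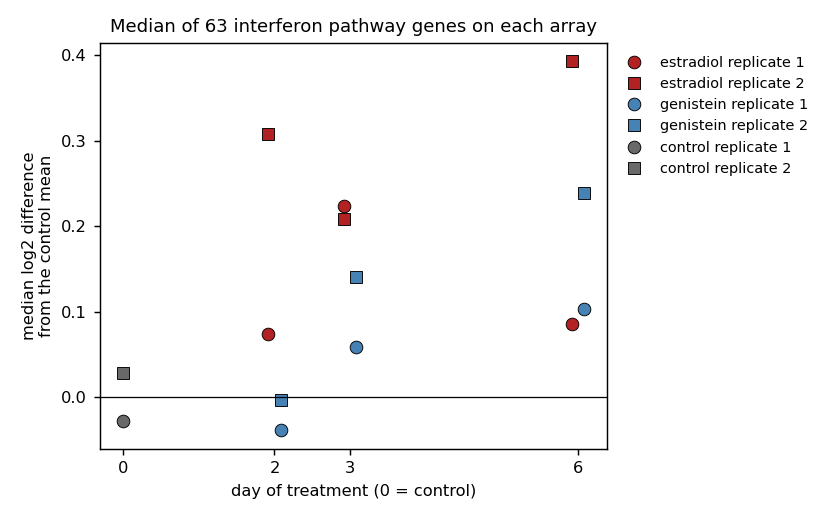
Median log2 difference from the control mean (y axis) over the 63 pathway genes on each array, against the day of treatment, with replicate 1 as circles and replicate 2 as squares. Estradiol day 6 replicate 2 has the highest median, 0.39, and replicate 1 of the same group has 0.09, below both estradiol day 3 arrays.

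Across all days, 17 of 90 pathway probe sets had all 6 estradiol arrays above both control arrays, where 8.04% of all probe sets did, and 1 had them below, where 6.96% of all did. Without estradiol day 6 replicate 2 the count was also 17 (8.43% of all probe sets), and with the 3 arrays of another scale left out it was 24 (14.6%). Of the member probe sets 3 of 9 were above, those of Irf7, Ifit1 and Slfn4. For genistein, 4 of 90 pathway probe sets were above both control arrays and 1 below, where 4.49% and 4.19% of all were, and 1 of 9 member probe sets, that of Ifit3, was above.

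Between the treatments, 3 pathway probe sets were higher under estradiol than under genistein over the mean of days and none was lower (limma adjusted p under 0.05), where 1.41% of all probe sets passed. They were those of Ifi35, Gbp2 and Isg20. Ifi35, an interferon-induced leucine zipper protein, had 174.3 to 239.9 on estradiol arrays, 106.9 to 160.4 on genistein arrays and 138.1 and 196.0 on control arrays. Its log2 difference of estradiol minus genistein was 0.55 ± 0.115 (limma adjusted p = 0.0341). Isg20, an RNA exonuclease with antiviral activity, had 586.3 to 794.8 on estradiol arrays, 423.5 to 615.7 on genistein arrays and 450.2 and 527.8 on control arrays. Its log2 difference of estradiol minus genistein was 0.43 ± 0.0992 (limma adjusted p = 0.0488). With the 3 arrays of another scale left out, neither passed, at 0.46 for Ifi35 (limma adjusted p = 0.304) and 0.31 for Isg20 (0.37). Isg20 also failed with a pseudocount of 1, no filter, quantile normalization, no trend, the replicate block, scale as a term or only the groups compared (limma adjusted p = 0.0503 to 0.538). It was thus lost in 8 of 10 settings, leaving aside values as deposited and single arrays left out. Ifi35 also failed with no filter (0.0597) and with scale as a term (0.317). The call of Ifi35 was lost in 8 of 14 fits that left out 1 array, those without estradiol day 2 replicate 2, either estradiol day 3 array, estradiol day 6 replicate 2, genistein day 2 replicate 1, either genistein day 3 array or genistein day 6 replicate 1, at 0.49 to 0.57 (limma adjusted p = 0.0617 to 0.141). That of Isg20 was lost in 11 of 14, all but those without estradiol day 2 replicate 1, genistein day 3 replicate 1 or genistein day 6 replicate 2, at 0.36 to 0.47 (limma adjusted p = 0.0505 to 0.181). Ifi35 was also the 1 probe set of 90 whose estradiol arrays all lay above all genistein arrays, where 0.965% of all probe sets did, and 0 of 90 lay below, where 0.413% did. Of the 9 member probe sets 0 lay above or below.

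Gbp2 (1435906_x_at) differed by 0.46 ± 0.089 for estradiol minus genistein over the mean of days (limma adjusted p = 0.0243) and by 0.87 ± 0.154 on day 6 (0.0436), the only probe set of 90 to pass on that day. Its signals were 121.4 and 106.9 on estradiol day 2, 150.4 and 136.8 on day 3 and 189.9 and 158.0 on day 6. On genistein arrays they were 66.5 and 71.6 on day 2, 156.3 and 152.6 on day 3 and 92.0 and 83.9 on day 6. The genistein day 3 arrays were thus level with the estradiol arrays of that day, unlike on the other days. The brighter Gbp2 probe set differed by 0.21 ± 0.0828 over the mean of days and did not pass (limma adjusted p = 0.221). The day 6 call was lost when any 1 estradiol or genistein array was left out, at 0.74 to 0.99 (limma adjusted p = 0.0507 to 0.479). The call over the mean of days was lost in 6 of 14 fits that left out 1 array, at 0.42 to 0.50. These were without either estradiol day 3 array, either estradiol day 6 array, genistein day 2 replicate 1 or genistein day 3 replicate 2. It was also lost with the 3 arrays of another scale left out, at 0.49. With scale as a term it was lost as well, at 0.54 (limma adjusted p = 0.137).

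On days 2 and 3 no pathway probe set passed between the treatments (limma), where 0.081% and 0.0147% of all probe sets did, and 0.265% did on day 6. At an unadjusted p under 0.05 there were 16, 8, 12 and 30 of the 90 for days 2, 3, 6 and their mean, against 6.72%, 6.7%, 13.4% and 17.1% of all probe sets. The median over the 63 pathway genes was 0.11 over the mean of days and 0.05 on day 6. Without estradiol day 6 replicate 2 the day 6 median was -0.07. Moderated F tests asked whether levels differed between days under estradiol, between days under genistein, or between treatments by day. No pathway probe set passed any of them (limma), where 0.0221%, 0.0% and 0.0% of all probe sets did. At an unadjusted p under 0.05 there were 6, 15 and 6 of 90 pathway probe sets, against 6.92%, 5.79% and 4.24% of all.

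The receptors and regulators that were looked up whatever their values did not pass in any comparison. Ifnar1, a chain of the type I interferon receptor, differed by -0.01 ± 0.126 for estradiol minus control and by 0.06 ± 0.126 for genistein minus control over the mean of days. Ifngr1, a chain of the interferon gamma receptor, differed by 0.32 ± 0.201 under estradiol and 0.32 ± 0.201 under genistein. Irf9, the partner of Stat2, had 138.4 to 235.2 on estradiol arrays, 134.8 to 193.6 on genistein arrays and 139.7 and 160.4 on control arrays. Usp18, which removes Isg15 from proteins and dampens type I signalling, differed from control by 0.50 ± 0.175 on estradiol day 6 and by 0.51 ± 0.175 on genistein day 6 (limma adjusted p = 0.216 and 0.382). Among the other Schlafen genes, Slfn8 differed by 0.10 ± 0.167 for estradiol minus control over the mean of days, and Slfn3 was below the filter, at 6.1 to 23.7 over all arrays.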

How the data were processed

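Deposited signals of 14 arrays were used as the authors deposited them, in intensity units, made with MAS5 5.0 per the submitters' processing notes. Groups, days, doses and replicates were taken per the labels. Detection calls and image files were not used here. The 64 control probe sets were removed from 22690, every array was multiplied to a 2%-trimmed mean of 150.04, and log2 was taken after adding 16. Ranked by their mean across arrays with no regard to group, the dimmest 40% of probe sets were not tested. Of the 22626 left after removing controls, 20380 were annotated to a single gene symbol, 691 to several and 1555 to no symbol, and the first kind alone was named.

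limma 3.58.1 in R 4.3.3 fitted 7 group means with an intensity trend (7 residual degrees of freedom, 13.74 after moderation), with Benjamini-Hochberg adjustment over all 13575 probe sets in each comparison. The genes described and the pathway list were chosen with earlier results of these data known. Pathway genes were named where a probe set passed, with Irf9, Usp18, Ifnar1, Ifngr1 and the Schlafen genes always, and a further gene of this rule is not reported here. A gene with several probe sets is represented by the brightest. For each member, the 2 genes with the highest Pearson r over all arrays were named. The pools of a group share 1 study, and their number limits the precision. The procedure was tested on simulated data. Other settings tried were a pseudocount of 1 or 64, no filter or the lowest 60% left out, quantile normalization, values as deposited, no trend, a replicate block, the arrays of another scale left out or as a term, only the groups compared, and each array left out in turn. Medians over lists and the count of arrays that do not overlap were added after seeing the data.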

Additional observations from a re-analysis of the deposited data

Results flagged for a closer look

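The probe set 1435906_x_at of Gbp2 differed between estradiol and genistein by 0.866 on day 6 and by 0.461 over the mean of days on the log2 scale, in a test of the difference itself. Ifi35 differed between the treatments by 0.554 over the mean of days, and Isg20 by 0.434. Each was higher under estradiol in limma at an adjusted p under 0.05. No array of a group could be tested as an outlier, since each group had 2.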

How the results depend on the processing

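With 2 pools a group, none of the 6 pathway calls held under all settings. Of 3381 alternatives to the 144 member differences, leaving aside values as deposited, 3250 moved by less than the within-group SD and 131 by more. In 116 of them, 88 with 1 array left out, the sign changed, over 65 differences of which the largest was 0.33 in size. Among these, Irf7 for estradiol minus genistein on day 6 (0.10) was -0.22 without estradiol day 6 replicate 2 and -0.26 without genistein day 6 replicate 1, and Ifit3 for estradiol minus control on day 6 (0.22) was -0.05 without estradiol day 6 replicate 2. Slfn2 on estradiol day 6 minus control ranged over -0.87 to -0.72. The 2 pathway probe sets called for estradiol minus control on day 6 became 1 with a pseudocount of 1, quantile normalization, the replicate block or the 3 arrays of another scale left out, and 0 with no filter, with values as deposited or with only the groups compared. The 1 probe set called for estradiol minus genistein on day 6 became 0 under these same settings and with scale as a term. The 3 called over the mean of days became 1 with no filter and 0 with the 3 arrays left out or scale as a term. Leaving out 1 array at a time gave 0 to 1 calls for estradiol minus control on days 2 and 3, 0 to 2 on day 6 and 0 to 3 over the mean of days. It gave 0 to 2 for genistein minus control on day 2 and 0 to 1 over its mean of days. For estradiol minus genistein it gave 0 to 1 on day 6 and 0 to 6 over the mean of days. The values as deposited, in which the 3 arrays stand higher, shift all probe sets by a median of 1.01 on estradiol day 3 and of 0.43 over the mean of days. They gave 89 and 50 calls for estradiol minus control on day 3 and over the mean of days. They gave 87 and 76 for estradiol minus genistein on day 3 and over the mean of days, 81 over the days of estradiol and 45 for the interaction. They changed the sign of 18 of 144 member differences, among them, for estradiol minus genistein on day 3, Slfn1 (0.89), Ifit3 (0.83) and Slfn2 (0.67). The main fit did not pair arrays by replicate number. Of 21 pairs of groups, 5 had a correlation of deviations over 0.1 (range -0.256 to 0.351), highest between genistein days 3 and 6. This count cannot exclude pairing among some groups. Estradiol day 3 differences with the 3 arrays left out could not be given. The cause of calls lost with other settings was not tested.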
